A study of Rattus norvegicus with 25 samples.

Results

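Transcripts of 8 genes of nerve, glia and glutamate signalling were followed in the esophageal epithelium of 25 male F344 rats, 5 in each of 5 groups. They were the glutamate receptor subunit genes Grik2 and Gria2, the netrin receptor gene Dcc, the glial genes Gfap, S100b and Sox10, the neurotrophin receptor gene Ngfr and the axonal filament gene Prph. They make up 8 of 15443 named genes on the array, and all 8 passed the filter on dim probes that left 12343 genes for testing. Grik2, Gria2, Dcc and Gfap were selected on their measured signals, having been lower in some comparisons of these same rats, so their group values are given as a description without p-values. S100b, Sox10, Ngfr and Prph were added as lineage genes, and for these the test was applied.

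In 3 groups, rats received N-nitrosomethylbenzylamine (NMBA), a nitrosamine that produces esophageal tumours in rats, together with a form of vitamin E. These groups were labelled NMBA+Alpha-T (alpha-tocopherol), NMBA+Delta-T (delta-tocopherol) and NMBA+Gamma enriched-T (a tocopherol preparation enriched in the gamma form), and are called alpha, delta and gamma-enriched rats. NMBA rats had the carcinogen and a normal diet, and Control rats had the normal diet and no NMBA. The labels give no doses, ages or durations. Each rat's RNA was hybridised to 1 single-colour Agilent array, on which between 70.6% and 79.8% of spots were well above background.

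The arrays were spread over 4 slides, and the groups were not balanced on them. All 5 alpha rats and delta rats 1 to 3 were on slide 1. Slide 2 held gamma-enriched rats 1 to 5, delta rats 4 and 5 and Control rat 1. Slide 3 held NMBA rats 1 to 4 and Control rats 2 to 5, and slide 4 held NMBA rat 5. The tissue label was checked with keratins and other epithelial genes, of which 9 of 10 were measured and were well above background on all 25 arrays. Muscle genes (9 of 10) and fibroblast genes (7 of 7) were also above background on every array, so the samples held more than epithelium. Of 31 neuronal markers 21 were tested, and 10 of these were well above background on all 25 arrays. The neurofilament gene Nefm, the synaptic vesicle gene Syt1, the autonomic factor gene Phox2a and the sensory sodium channel gene Scn9a were well above background on 0 arrays.

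The esophagus is supplied by extrinsic nerves and by a plexus of neurons within its wall, and fine nerve fibres end in the epithelium. Schwann cells and enteric glia accompany these fibres; they depend on the transcription factor Sox10 and contain the calcium-binding protein S100b and, in part, the intermediate filament protein Gfap. Ionotropic glutamate receptors are assembled from subunits of the AMPA, kainate and NMDA classes and open a cation channel when glutamate binds. Dcc binds netrins and steers growing axons, and it also acts in epithelial cells. Ngfr binds neurotrophins on nerves and glia and is also a marker of basal cells in stratified epithelium.

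Promoter sequence was available for 5 of the 8 genes (Grik2, Dcc, Gfap, S100b and Prph). The sequences of Grik2 with Gfap, and of S100b with Prph, are shown because each pair varied together between rats of the same group, as described further on. They run 5′ to 3′ over the 250 bases before the annotated gene start, from RefSeq on the GRCr8 assembly. Capitals mark matches, on either strand, to the SOX core ACAAAG (reverse CTTTGT), the TATA box TATAAA (reverse TTTATA) and the CCAAT box CCAAT (reverse ATTGG), none of which overlap here.

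Grik2, chr20:54415284-54415533, minus strand: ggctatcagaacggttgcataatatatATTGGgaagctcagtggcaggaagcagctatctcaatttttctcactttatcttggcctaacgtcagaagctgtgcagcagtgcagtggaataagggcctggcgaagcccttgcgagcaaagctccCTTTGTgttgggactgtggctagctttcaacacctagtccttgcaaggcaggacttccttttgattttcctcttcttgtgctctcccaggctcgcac

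Gfap, chr10:88361662-88361911, minus strand: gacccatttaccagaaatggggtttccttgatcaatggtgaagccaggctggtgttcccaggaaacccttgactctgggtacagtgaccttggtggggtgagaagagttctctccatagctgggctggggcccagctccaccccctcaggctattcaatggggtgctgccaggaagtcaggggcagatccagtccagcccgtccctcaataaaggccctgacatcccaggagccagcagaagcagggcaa

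S100b, chr20:12381082-12381331, minus strand: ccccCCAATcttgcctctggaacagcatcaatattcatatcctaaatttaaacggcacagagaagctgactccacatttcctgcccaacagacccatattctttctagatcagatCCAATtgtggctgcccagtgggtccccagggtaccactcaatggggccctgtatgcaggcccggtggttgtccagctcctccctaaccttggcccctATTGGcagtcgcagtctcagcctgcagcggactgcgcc

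Prph, chr7:132097039-132097288, plus strand: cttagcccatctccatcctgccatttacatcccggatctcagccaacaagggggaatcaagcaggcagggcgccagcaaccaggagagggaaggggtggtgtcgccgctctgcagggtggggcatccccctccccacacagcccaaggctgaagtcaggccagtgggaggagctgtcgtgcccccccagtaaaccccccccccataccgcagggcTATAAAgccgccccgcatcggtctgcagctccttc

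The Grik2 window held 1 CTTTGT and 1 ATTGG, the S100b window held 2 CCAAT and 1 ATTGG, and the Prph window held 1 TATAAA that began 35 bases before the start. No searched letters were found in the Gfap window. Of 27457 promoters of the same length, 16.0% held the SOX core, 13.1% the TATA box and 34.3% the CCAAT box. No motif was shared by both members of either pair.

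Signals are given as a percentage of the 75th-percentile signal of the same array, and detection means that a probe was well above background by the scanner software. S100b, Sox10, Ngfr and Prph were detected on 25 of 25 arrays. The 4 genes chosen for being lower were dim: Gfap was detected on 15 arrays, Grik2 and Gria2 on 13 each and Dcc on 9. The detection limit of an array was taken as its smallest signal among probes with every spot well above background. It differed between arrays and lay between 1.03% and 2.13% in NMBA rats, between 0.546% and 1.14% in gamma-enriched rats and between 0.718% and 1.13% in Control rats. In alpha rats it lay between 0.534% and 0.963%, and in delta rats between 0.667% and 1.03%. A probe with 1 of 2 spots well above background counted as detected and could lie below that limit, and a value of about 1% could count as detected in one rat and not in another. Gria2 and S100b each had a further probe, which was detected on 0 arrays and was not used. The unused Gria2 probe read 0.270 to 0.520% in NMBA rats and 0.196 to 0.325% in Control rats. It was thus not lower in NMBA rats, though all its values were undetected.

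**Figure D1:**
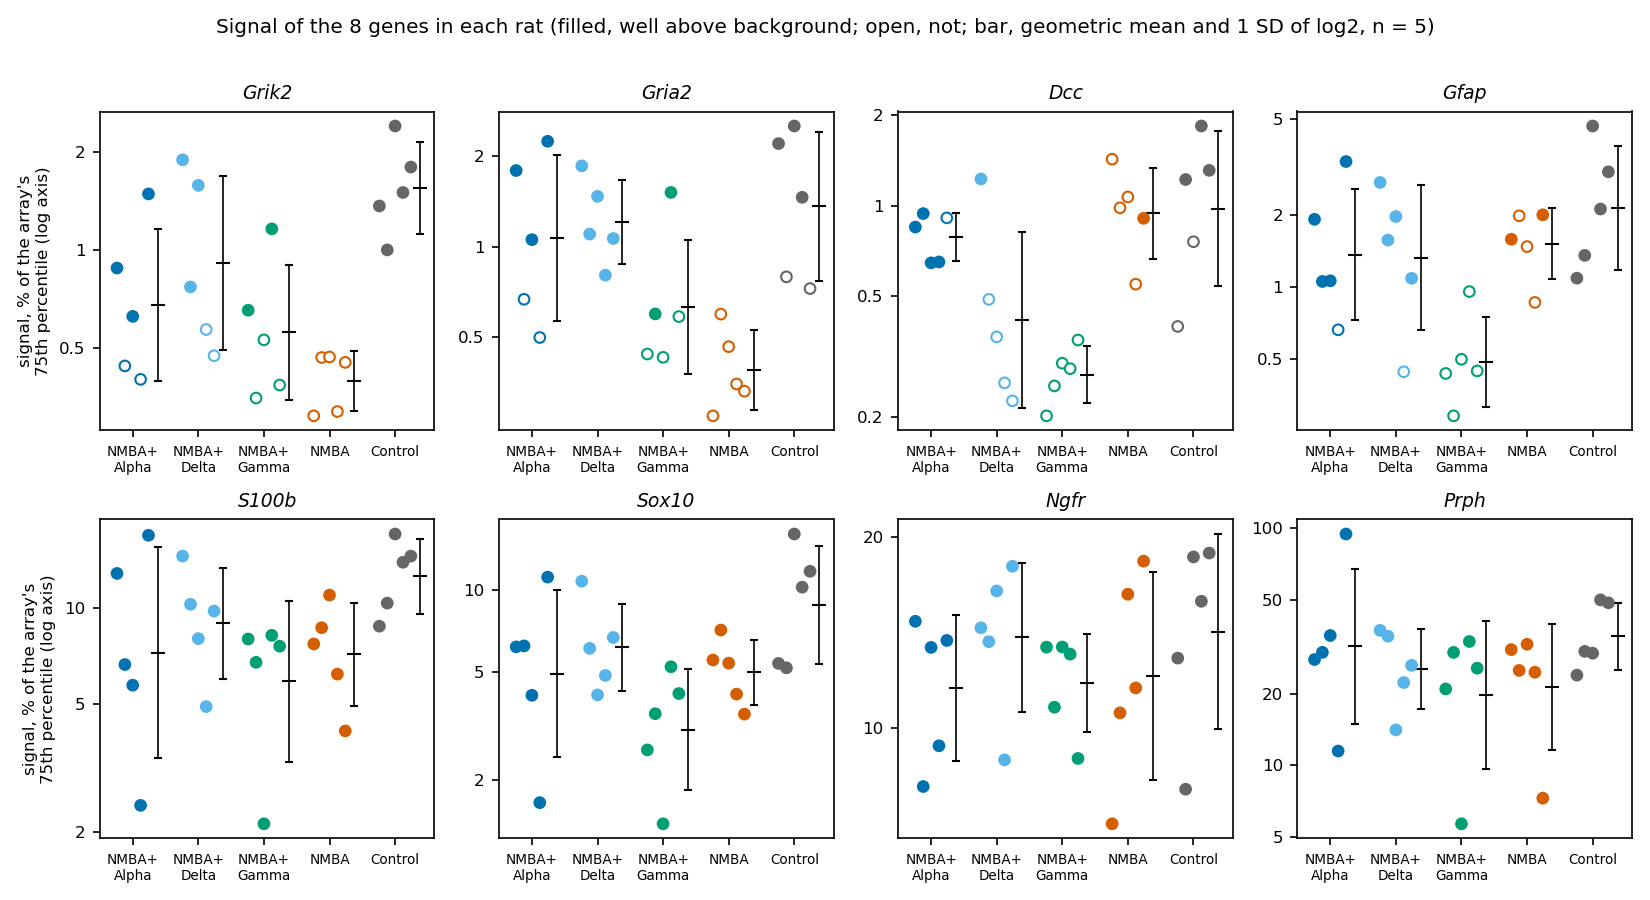
Signal of each of the 8 genes in each rat, as a percentage of the array's 75th-percentile signal on a log axis; columns of points are the 5 groups, filled points were well above background, and the bar beside them is the geometric mean with 1 SD of log2 (n = 5). Grik2 and Gria2 are detected on 0 NMBA arrays, Dcc and Gfap on 0 gamma-enriched arrays, and the other genes on all 25.

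The effect of the carcinogen on normally fed rats is read from NMBA against Control. Grik2 and Gria2 were lower in NMBA rats, which were undetected for both. The lineage genes S100b, Sox10, Ngfr and Prph did not pass the test, and neither did Dcc and Gfap. In such bulk samples fewer cells of a type and less RNA per cell cannot be told apart. So 2 of the 8 genes passed, the 2 chosen for it, while 1.55% of all genes passed.

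Grik2 encodes a kainate receptor subunit. Its signal was 0.309, 0.467, 0.468, 0.319 and 0.451% in NMBA rats 1 to 5, against 1.36, 0.998, 2.40, 1.5 and 1.79% in Control rats 1 to 5. Every NMBA rat lay below every Control rat, and the gene was detected in 0 NMBA rats and 5 Control rats. The fitted log2 difference of NMBA minus Control was −1.96 ± 0.39 (SE, n = 5 each). With NMBA rats set at the detection limits of their arrays, however, the Control mean was only 1.09-fold higher. That fold makes no allowance for spread or slide. Within slide 3, where 4 rats of each group share a slide, and with slide as a block, the difference was −2.06 ± 0.41.

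In the tocopherol groups, the mean of Grik2 lay between those of NMBA and Control rats. The signal was 0.878, 0.440, 0.624, 0.400 and 1.48% in alpha rats, 1.89, 0.768, 1.58, 0.569 and 0.473% in delta rats, and 0.652, 0.350, 0.529, 1.16 and 0.384% in gamma-enriched rats. The geometric mean was 0.678% in alpha, 0.907% in delta, 0.557% in gamma-enriched, 0.396% in NMBA and 1.54% in Control rats. The delta rats all lay above the NMBA rats, by 1.20 ± 0.39 log2 units, the lowest delta rat (0.473%) being just above the highest NMBA rat (0.468%). Alpha and gamma-enriched rats overlapped NMBA rats, with differences of 0.78 ± 0.39 and 0.49 ± 0.39. As Grik2 was undetected in all NMBA rats, no fold is given for these differences. No tocopherol rat shared a slide with an NMBA rat, so slide and treatment cannot be told apart here. With slide as a block the differences from NMBA rats were −0.30 ± 0.92 in alpha, 0.66 ± 0.82 in delta and 0.77 ± 0.75 in gamma-enriched rats. Gamma-enriched rats were 1.47 log2 units below Control rats (−1.47 ± 0.39), with overlap, and Grik2 did not pass there. Of 10 fits that each left out 1 rat it passed in 1, without Control rat 1 (−1.51). Grik2 having been chosen for falls, nothing is read from that pass.

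Gria2 encodes the AMPA receptor subunit that keeps the channel closed to calcium. Its signal was 0.273, 0.596, 0.465, 0.349 and 0.330% in NMBA rats, against 2.21, 0.794, 2.52, 1.46 and 0.725% in Control rats. The groups did not overlap, and detection was in 0 NMBA rats and 3 Control rats. The fitted difference was −1.81 ± 0.42 log2 units, with no fold to give, since the mean detection limit of the 5 NMBA arrays was above the Control mean. Under the slide block it was −1.58 ± 0.47. Gria2 no longer passed when Control rat 1, 3 or 4 or NMBA rat 1 or 5 was left out, with differences between −1.79 and −1.59.

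Gria2 was higher in every delta rat than in every NMBA rat, at 1.86, 1.1, 1.47, 0.804 and 1.07%, and was detected in all 5 delta rats. The difference was 1.64 ± 0.42 log2 units. Detection limits were lower on delta arrays (0.667 to 1.03%) than on NMBA arrays (1.03 to 2.13%), so detection cannot be compared between these groups. No fold is given, since the mean detection limit of the NMBA arrays was above the delta mean. Alpha rats had 1.79, 0.668, 1.06, 0.498 and 2.25%, 1.47 ± 0.42 above NMBA rats but overlapping them. Gamma-enriched rats had 0.439, 0.597, 0.428, 1.52 and 0.585%, with rat 4 alone in the range of the Control rats. Delta and alpha rats shared no slide with NMBA rats, and with slide as a block the delta minus NMBA difference was 0.33 ± 0.95, so slide and treatment cannot be told apart here. These tocopherol comparisons and that of NMBA with Control share the same 5 NMBA rats.

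Both receptor genes depended on how background was handled. With normexp background correction, which adds an offset to dim signals, the NMBA minus Control difference was −0.61 ± 0.18 for Grik2 and −0.51 ± 0.19 for Gria2, and neither passed. With quantile normalization the differences were −2.41 and −2.11. That normalization also put gamma-enriched rats above NMBA rats by 1.30 for Grik2 and 1.36 for Gria2, both past the test, where the values were otherwise 0.49 ± 0.39 and 0.70 ± 0.42 and did not pass. The groups did not overlap in 2 of the 8 genes, Grik2 and Gria2, against 4.0% of all genes, which follows from how the pair was chosen.

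In delta rats against NMBA rats, 1 of the 8 genes passed (Gria2), against 2.49% of all genes, and 2 had groups that did not overlap (Grik2 and Gria2), against 5.70%. Both genes had been chosen for falls in these data, so nothing is read from these counts. The Gria2 call was lost when delta rat 1, 2, 3 or 5 or NMBA rat 1, 2, 3 or 5 was left out (1.49 to 1.80), and normexp gave 0.34 ± 0.19. In alpha rats against NMBA rats, 0 of the 8 passed, against 3.82% of all genes. Gria2 passed there without alpha rat 2 (1.64) or alpha rat 4 (1.75), of 10 fits that each left out 1 rat, and with quantile normalization (1.81). As Gria2 was a chosen gene, nothing is read from these passes.

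The other AMPA and kainate receptor genes were not seen to follow Grik2 and Gria2. Of 21 listed subunit and auxiliary genes, 8 were tested, and in NMBA against Control 2 were lower and 0 higher, the 2 being Grik2 and Gria2 themselves. The median of the 8 was 0.16 log2 units, beside 0.05 over all genes. The kainate subunit gene Grik4 and the auxiliary subunit gene Cacng5, which passed in another comparison below, stood at 0.48 ± 0.37 and 0.54 ± 0.23 here. Many family members could not be measured, with Gria1, Grik1, Grid1, Grin2a and Grin2b detected on 0 arrays. Of 4 NMDA receptor genes tested, 0 passed. Among 2 metabotropic receptor genes, Grm4 rose by 0.86 ± 0.19 in NMBA rats (limma adjusted p = 0.0202; 0.89 ± 0.23 with slide as a block, which did not pass).

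Dcc and Gfap were lower in gamma-enriched rats than in NMBA or Control rats, and undetected in all 5 gamma-enriched rats. In gamma-enriched rats against NMBA rats 2 of the 8 genes passed, Dcc and Gfap, against 8.95% of all genes, of which 196 were higher and 909 lower. Both had been chosen for being lower in these results, so nothing is read from their count. Against Control rats the same 2 passed, beside 0.632% of all genes. Both comparisons rest on the same 5 gamma-enriched rats, all of them on slide 2.

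Dcc had 0.201, 0.253, 0.300, 0.288 and 0.359% in gamma-enriched rats, against 1.42, 0.983, 1.07, 0.549 and 0.907% in NMBA rats and 0.398, 1.22, 0.759, 1.83 and 1.31% in Control rats. Every gamma-enriched rat lay below every rat of both other groups. The difference was −1.78 ± 0.39 log2 units against NMBA rats and −1.83 ± 0.39 against Control rats. Only 1 NMBA rat and 3 Control rats had a detected signal, so no fold is given. Between NMBA and Control rats the difference was −0.05 ± 0.39.

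The Dcc signal also followed the slide. The 8 arrays of slide 2 ran from 0.201 to 0.398%, with 0 detected, while those of slide 1 ran from 0.367 to 1.22% and those of slide 3 from 0.549 to 1.83%. Slide 2 held the lowest delta rats, 4 and 5, with 0.259 and 0.225%, whereas delta rats 1 to 3 on slide 1 had 1.22, 0.489 and 0.367%. It also held the lowest Control rat, rat 1, with 0.398%. Delta minus NMBA was −1.17 ± 0.39 for Dcc and did not pass. Of 10 fits that each left out 1 rat it passed in 1, without delta rat 1 (−1.56), and nothing is read from that for a chosen gene. With slide as a block the gamma-enriched difference was −0.17 ± 0.61 against NMBA rats and −0.53 ± 0.51 against Control rats, and neither passed. Slide and gamma-enriched treatment cannot be told apart for Dcc, except through the 3 other rats on slide 2.

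Gamma-enriched rats were also below alpha rats in Dcc, where alpha rats had 0.849, 0.941, 0.646, 0.650 and 0.910%. The difference was −1.52 ± 0.39, and 1 of the 8 genes passed (Dcc), against 1.62% of all genes; with slide as a block it was −0.20 ± 0.52. The groups did not overlap in 1 of the 8 genes (Dcc), against 3.19% of all genes. This call was kept when alpha rat 4 was left out and lost without any other single rat of the 2 groups (−1.61 to −1.41). In gamma-enriched against NMBA rats, Dcc was also the 1 gene of the 8 without overlap, beside 7.05% of all genes. Since Dcc had been chosen for being lower, nothing is read from these counts.

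**Figure D2:**
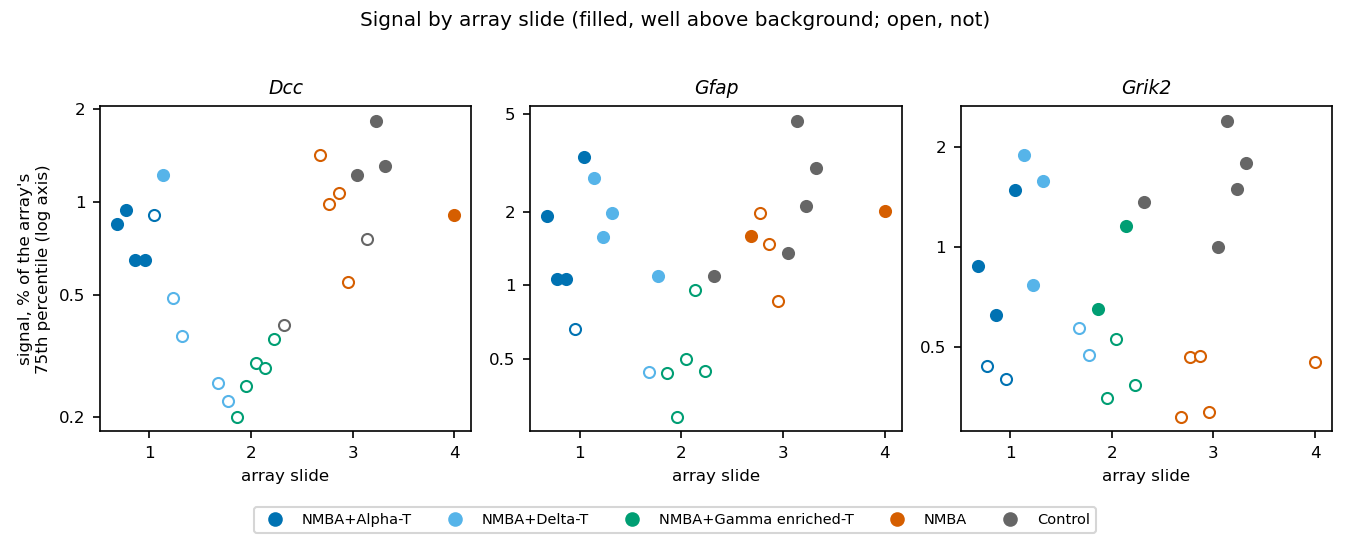
Signal of Dcc, Gfap and Grik2 by array slide, as a percentage of the array's 75th-percentile signal on a log axis; each point is a rat, coloured by group, and filled where well above background. All 8 Dcc values on slide 2 are 0.398% or less, while Grik2 in Control rat 1, on slide 2, lies within the range of the other Control rats.

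Gfap had 0.436, 0.290, 0.499, 0.957 and 0.446% in gamma-enriched rats, against 1.58, 1.98, 1.47, 0.862 and 2.0% in NMBA rats and 1.09, 1.35, 4.7, 2.12 and 3.02% in Control rats. Gamma-enriched rat 4 overlapped the lowest NMBA rat, and none overlapped the Control rats, in which Gfap was detected on all 5 arrays. The difference was −1.64 ± 0.48 against NMBA rats, of which 2 were detected, and −2.14 ± 0.48 against Control rats. With each gamma-enriched rat set no lower than its array's detection limit, the Control mean was 2.69-fold higher. That fold makes no allowance for spread or slide. Alpha rats had 1.92, 1.05, 1.06, 0.663 and 3.34% and delta rats 2.73, 1.57, 1.97, 0.443 and 1.09%. Gamma-enriched rats overlapped both groups, with differences of −1.49 ± 0.48 from alpha rats and −1.45 ± 0.48 from delta rats, neither past the test. Of 10 fits that each left out 1 rat, the difference from alpha rats passed in 1, without alpha rat 4 (−1.75). As Gfap was a chosen gene, nothing is read from that pass.

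On slide 2 Gfap was less uniformly low than Dcc. Control rat 1 (1.09%) and delta rat 5 (1.09%) were detected there, whereas delta rat 4 had 0.443%. With slide as a block, Gfap stood at −0.33 ± 0.86 against NMBA rats and −1.16 ± 0.72 against Control rats, and neither passed. In the difference from NMBA rats the Gfap call was lost without gamma-enriched rat 1, 2 or 5 or NMBA rat 1, 2, 3 or 5 (−1.65 to −1.46). Against Control rats it was lost for Gfap without gamma-enriched rat 1, 2, 3 or 5 or Control rat 3, 4 or 5 (−2.15 to −1.85), and for Dcc without gamma-enriched rat 1, 2 or 4 or Control rat 2, 4 or 5 (−1.84 to −1.60). Normexp gave −0.62 ± 0.17 for Dcc and −0.74 ± 0.25 for Gfap against NMBA rats, and −0.56 ± 0.17 and −0.93 ± 0.25 against Control rats, and only Dcc against NMBA rats passed.

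**Figure D3:**
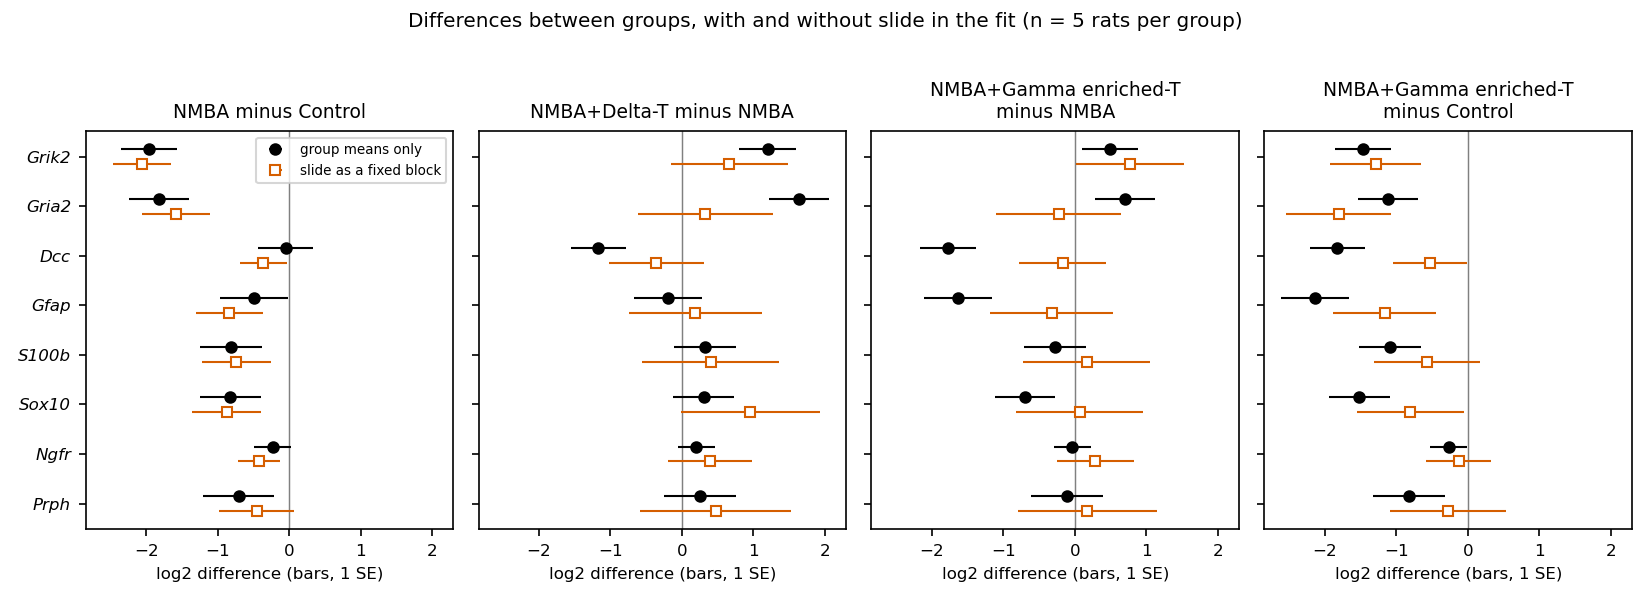
Log2 differences of the 8 genes in 4 comparisons, with bars of 1 SE (n = 5 rats per group); filled circles are from the fit on group means and open squares from the fit with slide as a fixed block. Grik2 in NMBA minus Control is −1.96 without and −2.06 with the block, while Dcc in gamma-enriched minus NMBA is −1.78 without and −0.17 with it.

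Genes around Dcc and the receptors were counted in the same comparison of gamma-enriched with NMBA rats. Of 8 netrin and Dcc signalling genes tested from 15 listed, 1 was lower (Dcc) and 0 higher. The median of the 8 was −0.37 log2 units, beside −0.10 over all genes. In gamma-enriched against Control rats all 8 were negative, with a median of −0.80, and Dcc alone passed. Of the 8 AMPA and kainate receptor genes 2 fell, Grik4 (−1.83 ± 0.37, limma adjusted p = 0.00479) and Cacng5 (−1.30 ± 0.23, limma adjusted p = 0.00364). The NMDA subunit genes Grin3a (−0.89 ± 0.27, limma adjusted p = 0.0377) and Grin3b (−0.50 ± 0.15, limma adjusted p = 0.0400) fell too, as did the vesicular glutamate transporter gene Slc17a8 (−1.49 ± 0.27, limma adjusted p = 0.00364). In the fit with slide as a block these differences were 0.47 ± 0.43, 0.21 ± 0.32, −0.10 ± 0.55, −0.01 ± 0.29 and 0.27 ± 0.37 in the same order, and none passed. The neurotrophin receptor gene Sort1 rose by 0.44 ± 0.14 (limma adjusted p = 0.0496), but stood at −0.27 with normexp.

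Against alpha rats, Grik4 (−1.81 ± 0.37), Cacng5 (−1.0 ± 0.23) and Slc17a8 (−1.08 ± 0.27) fell in gamma-enriched rats as well, with limma adjusted p of 0.0168, 0.0278 and 0.0419. The slide block gave −0.75 ± 0.37, −0.85 ± 0.27 and −0.86 ± 0.32, and none passed.

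Genes of other cell types moved in the comparison of gamma-enriched with NMBA rats too. Of 9 epithelial genes 4 fell (Krt14, Krt4, Krt13 and Tgm1), the largest difference being Krt4 at −0.81 ± 0.15 (limma adjusted p = 0.00383). Of 7 fibroblast genes 1 fell (Dcn, −0.74 ± 0.22, limma adjusted p = 0.0358), and muscle genes were negative in 9 of 9 with a median of −0.53 and 0 past the test. Of 5 leukocyte genes 1 fell (Cd3e, −2.13 ± 0.43, limma adjusted p = 0.00488) and all were negative, with a median of −0.88. Endothelial genes were negative in 4 of 4 with a median of −0.53. None of these calls was kept in the fit with slide as a block, where Krt4 stood at −0.14 ± 0.28, Dcn at −0.17 ± 0.42 and Cd3e at −2.11 ± 0.84. The glial list had 1 of 16 lower (Gfap) and a median of −0.08. The part of these cell types in the Gfap and Dcc values was not tested.

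The glial genes S100b and Sox10 passed no test in any of 10 comparisons, while their highest group mean was in Control rats. S100b had 7.70, 8.65, 10.9, 6.20 and 4.12% in NMBA rats, against 8.74, 10.3, 17.0, 13.8 and 14.5% in Control rats. The groups overlapped, and the difference was −0.81 ± 0.43 (limma adjusted p = 0.448). Sox10 had 5.52, 7.11, 5.38, 4.14 and 3.50% in NMBA rats, against 5.37, 5.17, 16.0, 10.2 and 11.7% in Control rats, a difference of −0.82 ± 0.42 (limma adjusted p = 0.427). Control rats 1 and 2 lay within the range of the NMBA rats.

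Both glial genes had their lowest group mean in gamma-enriched rats. S100b had 7.97, 6.74, 2.11, 8.19 and 7.57% there, so that every gamma-enriched rat lay below every Control rat. The difference was −1.09 ± 0.43 (limma adjusted p = 0.194), and −0.72 without gamma-enriched rat 3. Sox10 had 2.59, 3.51, 1.39, 5.22 and 4.16%, a difference of −1.52 ± 0.42 from Control rats (limma adjusted p = 0.0876). Gamma-enriched rat 4 just exceeded Control rat 2. Without Control rat 1 the Sox10 difference was −1.70 (limma adjusted p = 0.0256), and with slide as a block −0.81 ± 0.75. In gamma-enriched against Control rats, 3 of the 8 genes had groups that did not overlap (Dcc, Gfap and S100b), against 3.36% of all genes. Dcc and Gfap had been chosen for being lower, so nothing is read from this count. With slide as a block the S100b difference was −0.57 ± 0.74.

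In alpha rats S100b ran from 2.41% (rat 4) to 16.8% (rat 5) and Sox10 from 1.66% to 11.1% in the same 2 rats. Delta rats ran from 4.91 to 14.5% for S100b and from 4.12 to 10.7% for Sox10. The geometric mean of S100b was 7.23% in alpha, 8.93% in delta, 5.88% in gamma-enriched, 7.14% in NMBA and 12.5% in Control rats. That of Sox10 was 4.93, 6.14, 3.07, 4.98 and 8.81% in the same order of groups. Groups next to each other by these means overlapped for both genes. Control rats had the highest geometric mean for all 8 genes, 4 of which were chosen for lower values in other groups.

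Prph, the intermediate filament gene of peripheral axons, ran from 11.5 to 94.5% in alpha, 14.1 to 37.1% in delta, 5.66 to 33.3% in gamma-enriched, 7.27 to 32.4% in NMBA and 24 to 49.9% in Control rats. The geometric mean was 31.7, 25.5, 19.8, 21.4 and 34.9% in that order, and all groups overlapped. The difference of NMBA from Control rats was −0.71 ± 0.50 (limma adjusted p = 0.586), and −0.32 without NMBA rat 5, which had the 7.27%. Gamma-enriched minus Control was −0.82 ± 0.50 (limma adjusted p = 0.381), and −0.37 without gamma-enriched rat 3, which had the 5.66%.

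Ngfr varied least of the 8 between groups. It ran from 8.08 to 14.7% in alpha, 8.90 to 18.0% in delta, 8.95 to 13.4% in gamma-enriched, 7.06 to 18.3% in NMBA and 8.0 to 18.8% in Control rats. Of its 10 differences the furthest from 0 was alpha minus Control, at −0.30 ± 0.26 log2 units. Of 14 neurotrophin and receptor genes tested, 0 passed in NMBA against Control, where the neurotrophin gene Bdnf stood at −0.86 ± 0.38 and the neurotrophin-3 receptor gene Ntrk3 at −0.78 ± 0.27.

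In the remaining comparisons 0 of the 8 genes passed. Over all genes 0.818% passed in alpha against Control rats, 0.194% in delta against Control rats, and 0% in delta against alpha and in gamma-enriched against delta rats by limma. In the last 2 comparisons 571 and 503 genes had an unadjusted p under 0.05.

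The wider glial and neuronal lists were counted in NMBA against Control, where 1.55% of all genes passed. Of 16 Schwann cell and enteric glia genes tested from 20 listed, 0 passed, 11 had a negative and 5 a positive difference, and the median was −0.55 log2 units beside 0.05 over all genes. The largest were the myelin-associated gene Mal (−1.63 ± 0.97) and the adhesion gene Ncam1 (−1.01 ± 0.41). Of 21 neuronal genes tested from 31, 0 passed, 14 were negative and the median was −0.31. Stmn2, a growth cone gene, stood at −1.62 ± 1.09, and Calca, which encodes the sensory neuropeptide CGRP, at −0.94 ± 0.52. The tubulin gene Tubb3, named after its value was seen as having the smallest p of the list, stood the other way at 0.82 ± 0.25 (limma adjusted p = 0.118). Fibroblast genes were negative in 7 of 7 (median −0.46) and adipocyte genes in 4 of 4 (median −0.89), while epithelial genes were positive in 7 of 9 (median 0.20). Leukocyte genes were positive in 4 of 5, and the T cell receptor complex gene Cd3e rose by 2.11 ± 0.43 (limma adjusted p = 0.00995; 1.92 ± 0.45 with slide as a block, which did not pass). The part of these cell types in the glial values was not tested.

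In gamma-enriched against Control rats the glial median was −0.77 beside −0.06 over all genes, with 1 of 16 lower (Gfap), and 0 of 21 neuronal genes passed. There the fibroblast median was −0.79, the adipocyte median −0.92 and the muscle median −0.53, with 0 of those genes past the test. The summed fibroblast signal ran from 2624 to 5593% of the 75th percentile in gamma-enriched rats, against 5755 to 9181% in Control rats, so these groups did not overlap. The summed epithelial signal ran from 7450 to 13662% against 8671 to 15048%. The part of these other cell types in the lower glial values was not tested. Pmp2, a myelin lipid-binding protein gene, fell in alpha (−1.05 ± 0.22, limma adjusted p = 0.0112) and delta rats (−0.87 ± 0.22, limma adjusted p = 0.0381) against NMBA rats, and with the slide block the values were −0.14 ± 0.54 and −0.10 ± 0.48, neither of which passed.

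Variation between rats of the same group was examined next, as each rat's deviation from its group mean over 25 rats, in 28 pairs of the 8 genes with p-values from 100000 permutations of rats within groups. S100b and Sox10 varied together (Pearson r = 0.88, permutation p = 1e-05, adjusted p = 0.00014; Spearman rho = 0.83, permutation p = 1e-05), and 1e-05 is the smallest p that these permutations give. Without alpha rat 4 and gamma-enriched rat 3, farthest from the median, r was 0.79. Within slides 1, 2 and 3, of 8 rats each, r was 0.94, 0.86 and 0.76. So rats with little S100b transcript for their group also had little Sox10 transcript, on each slide.

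Prph joined these genes on some slides only. Its r with S100b was 0.83 (rho = 0.68, permutation p = 0.00024 and 0.00057, adjusted p = 0.0014 for r) and with Sox10 0.79 (rho = 0.67, permutation p = 5e-05 and 0.00074, adjusted p = 0.000467 for r). Without the 2 farthest rats these were 0.70 and 0.67. Within slide 3 they were 0.33 and 0.13, against 0.83 and 0.90 on slide 1 and 0.90 and 0.93 on slide 2, so the relation was weak on slide 3. Ngfr did not join them, with r = 0.26 with S100b (permutation p = 0.211) and r = −0.05 with Prph (permutation p = 0.825).

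**Figure D4:**
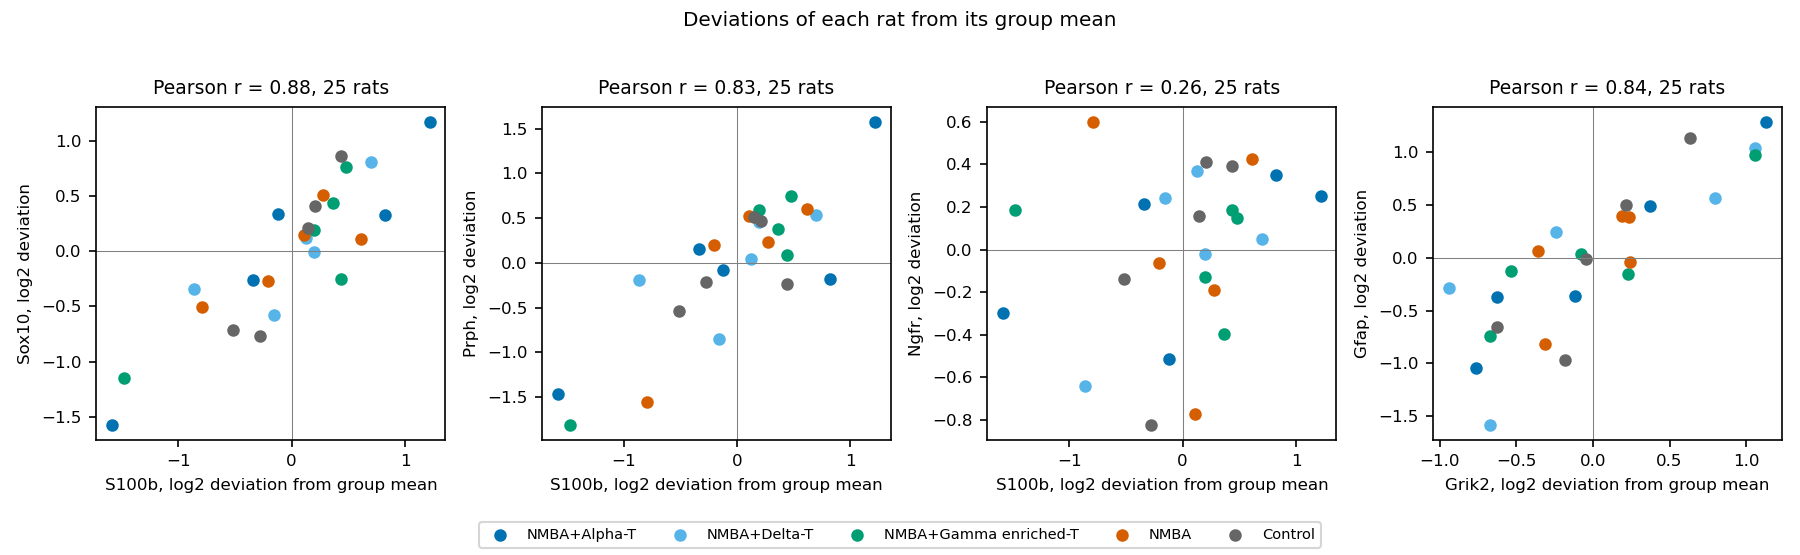
Deviation of each rat from its group mean on the log2 scale for 4 pairs of genes, 25 rats coloured by group. S100b and Sox10 (r = 0.88), S100b and Prph (r = 0.83) and Grik2 and Gfap (r = 0.84) vary together, while S100b and Ngfr have r = 0.26.

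S100b, Sox10 and Prph also varied with the summed signal of other cell types. Over 18 such pairs, Sox10 had r = 0.87 with the endothelial sum (rho = 0.83, permutation p = 1e-05 and 2e-05, adjusted p = 0.00018 for r), or 0.78 without the 2 farthest rats, and 0.92, 0.96 and 0.53 within slides 1, 2 and 3. The endothelial sum had r = 0.79 with S100b (rho = 0.73) and 0.71 with Prph (rho = 0.57), but 0.38 and −0.62 within slide 3. With the fibroblast sum r was 0.78 for S100b (rho = 0.63), 0.74 for Sox10 (rho = 0.62) and 0.79 for Prph (rho = 0.55), with permutation p of 0.0005, 0.00053 and 0.00099 and adjusted p of 0.0014, 0.0014 and 0.00198 for r; within slide 3 these were 0.13, −0.08 and −0.31. With the adipocyte, leukocyte and muscle sums r ran from 0.64 to 0.75, 0.68 to 0.75 and 0.53 to 0.72. The muscle rho was lower for S100b (0.41) and Sox10 (0.39) than for Prph (0.64). Within slide 3, for S100b, Sox10 and Prph in turn, r was 0.003, 0.44 and −0.03 with the adipocyte sum. It was 0.46, 0.39 and −0.005 with the leukocyte sum and −0.08, −0.49 and 0.60 with the muscle sum. With the epithelial sum r was 0.09, 0.22 and −0.02 (permutation p = 0.702, 0.368 and 0.944), but its sign differed between slides. Within slides 1, 2 and 3 it was 0.64, −0.50 and 0.54 for S100b, and 0.65, −0.27 and 0.41 for Sox10. For Prph it was 0.48, −0.54 and 0.17. The share of stromal tissue in the sample was not separately measured, and its part in the variation of the glial genes was not tested.

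Among the dim genes, Grik2 and Gfap varied together within groups (r = 0.84, rho = 0.84, permutation p = 1e-05 and 2e-05, adjusted p = 0.00014 for r). Without the 2 farthest rats r was 0.79, and within slides 1, 2 and 3 it was 0.94, 0.71 and 0.86. Grik2 and Gria2 had r = 0.72 (rho = 0.69, permutation p = 0.00025 and 0.0005, adjusted p = 0.0014 for r), or 0.66 without the 2 farthest rats. Within the slides these were 0.92, 0.60 and 0.69. Gfap also varied with Sox10 (r = 0.65, permutation adjusted p = 0.00943), S100b (0.62, 0.011), Gria2 (0.61, 0.0143) and Ngfr (0.55, 0.0218). Gria2 had r = 0.61 with both S100b and Sox10 (permutation adjusted p = 0.0199 and 0.0218), and Grik2 had 0.55 with Ngfr (0.011). Without the 2 farthest rats these further pairs had r from 0.46 to 0.63. Dcc had r = 0.34 with Grik2 (permutation p = 0.161) and 0.03 with Gria2 (permutation p = 0.897). Many of these signals lay below detection, where array background enters the value, and its part was not tested.

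Genes with the pattern most like each of the 8 were sought among 12343 by Pearson's r over the 25 rats, as a description in which rats share groups and slides. The genes most like Sox10 were the glial receptor gene Gpr37l1 (r = 0.96), Cmtm5 (0.95) and Tspan11 (0.94). Those most like S100b were the small proteoglycan gene Omd (0.93), the interleukin-13 decoy receptor gene Il13ra2 (0.91) and the ceruloplasmin gene Cp (0.91). Prph was most like Rftn1 (0.93), Fam20c (0.92) and Podxl2 (0.91), and Ngfr was most like Lbhd2, Gcnt3 and Slc39a4, at 0.82, 0.81 and 0.80.

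Grik2 was most like the cytochrome P450 gene Cyp2b2 (r = 0.84), Gria2 (0.82) and the protease inhibitor gene Serpine2 (0.81). Gria2 was most like the Wnt ligand gene Wnt5a (0.83), Grik2 (0.82) and the actin regulator gene Phactr3 (0.82). Dcc was most like the odorant receptor gene Or2n1 (0.92), the neuropeptide B gene Npb (0.91) and Tsga10ip (0.90). Or2n1 was detected on 6 arrays and Npb on 11, so many of these signals lay below detection. Tsga10ip was detected on all 25 arrays and, like Dcc, was lowest on slide 2, at 1.42 to 2.37%, against 2.61 to 5.16% on slide 1 and 2.83 to 5.44% on slide 3. Gfap was most like the transcription factor genes Sall1 and Foxa2 (0.90 each) and the cadherin gene Cdh17 (0.90). Sall1 was detected on 15 arrays and Foxa2 on 8. Cdh17, detected on all 25 arrays, had a median of 1.45% on slide 2, against 2.96% on slide 1 and 3.41% on slide 3.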

How the data were processed

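The deposited scanner files hold fluorescence intensity of 1-colour arrays; they were written by Agilent Feature Extraction, version 11.5.1.1 per the file headers and version 10.7 per the submitters' processing notes. The deposited value table is on a log2 scale with each array's 75th percentile near 0, and it followed the scanner values; its rows were used as an alternative. No column belonged to samples outside the series (0 columns).

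Spots marked non-uniform or outlying were dropped, repeated spots were averaged on the log2 scale, and each array's 75th percentile was subtracted. Of 30367 probes, 18355 matched a symbol through their RefSeq accession. A probe was kept when well above background on at least 5 of 25 arrays (at least 50% of its spots), and a gene took its brightest kept probe. Groups were fitted with limma 3.58.1 over 12343 genes (20 residual degrees of freedom), with two-sided tests at an adjusted p of 0.05 (Benjamini-Hochberg, separately for 10 contrasts). SEs are limma's moderated ones. Folds at the detection limit use, per array, the lowest signal among probes with every spot well above background. They are given only where the brighter group was detected in all 5 rats, and they make no allowance for spread or slide. The rats are labelled as separate animals. Alternatives were normexp (offset 50), quantile normalization, the value table, no filter and a filter at 15 arrays, the mean of a gene's probes, slide and rat number as blocks, single slides, 2-group fits and leaving out each rat; normexp used the median spot signal, because the files carry no mean signal.

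The 8 genes and the gene lists were chosen with earlier results of these data known. Genes named beside the 8 are, per list and contrast, up to 4 that passed or the 1 or 2 largest that did not, and the 3 most alike per gene; unplaced symbols were skipped, and undetected genes were named after their values were seen. Fits were tested on simulated data. Rat numbers did not pair the animals: same-numbered rats of different groups had a median correlation of −0.05 over 50 pairs of deviations.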

Additional observations from a re-analysis of the deposited data

Results flagged for a closer look

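In 4 of 40 sets of 5 rats (8 genes in 5 groups), 1 rat stood apart from the other 4 by a gap above Dixon's critical value of 0.71 of the range. Gap and range were taken on the log2 scale, not on the percentages given here. Chance alone gives such a gap in about 1 in 20 sets. Gamma-enriched rat 3 was lowest for S100b, at 2.11% of the 75th-percentile signal, where the other 4 had 6.74 to 8.19%. The same rat was lowest for Prph, at 5.66%, against 21.0 to 33.3% in the others. NMBA rat 5, the only rat on slide 4, was lowest for Prph at 7.27%, against 24.7 to 32.4%. Gamma-enriched rat 4 was highest for Gria2 at 1.52%, where the others had 0.428 to 0.597%.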

How the results depend on the processing

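The count of the 8 genes passing depended on several choices, and the cause was not tested. In NMBA against Control (2 genes) it was 0 with normexp and with the filter at 15 arrays, and 1 with slide as a fixed block, the replicate block, slide 3 alone and the 2-group fit. In alpha against NMBA (0 genes) it was 1 with quantile normalization, no filter, the mean of the probes and slide as a random block. In delta against NMBA (1 gene) it was 0 with normexp, the filter at 15 arrays, slide as a fixed block and the replicate block, and 2 with quantile normalization. In gamma-enriched against NMBA (2 genes) it was 1 with normexp and the filter at 15 arrays and 0 with slide as a fixed block. With quantile normalization Dcc passed there as lower and Grik2 and Gria2 as higher, while Gfap did not pass. In gamma-enriched against Control (2 genes) it was 0 with normexp, slide as a fixed block, slide 2 alone (chosen after seeing the data), the replicate block and the 2-group fit, 1 with the filter at 15 arrays and 4 with slide as a random block. In gamma-enriched against alpha (1 gene) it was 0 with normexp, quantile normalization, the filter at 15 arrays, slide as a fixed block and the replicate block, and 2 with slide as a random block. Leaving out 1 rat gave 1 to 2, 0 to 1, 0 to 1, 1 to 2, 0 to 4 and 0 to 2 in these comparisons in turn, and 0 in the other 4. The filter at 15 arrays removes Grik2, Gria2 and Dcc. The replicate block uses rat numbers that pair no animals (12 of 50 pairs above 0.1, and 0 rats closest to their own number). Of the values of single genes under all alternatives, 1559 were classed as unchanged (a move of less than 1 SD between rats), 49 as moved further and 2 as newly passing (both Sox10). These classes do not hold every change of call of Grik2, Gria2, Dcc and Gfap, each of which newly passed in some fits given above. Over all genes, calls in these 6 comparisons numbered 191, 471, 307, 909 lower with 196 higher, 78 and 200. Under slide as a fixed block they were 62, 1, 1, 1, 4 and 0. Under slide as a random block the last 5 were 800, 742, 1805, 308 and 440. The correlation within slides estimated for that fit was −0.0311, so it did not adjust for slide as the fixed block does. Without the filter on dim probes alpha, delta and gamma-enriched against NMBA had 2141, 961 and 3321. The 2-group fit gave 95, 114 and 71 in the first 3 and 19 in gamma-enriched against Control, and slide 3 alone gave 31 in NMBA against Control. The replicate block gave 310, 161, 34 and 111 in alpha and delta against NMBA, gamma-enriched against Control and gamma-enriched against alpha. In the last 2 of these normexp gave 30 and 63, and the filter at 15 arrays gave 82 in the last. In alpha and delta against Control (101 and 24 calls), slide as a fixed block gave 4 and 4, as a random block 312 and 51, and normexp 181 and 57. Alpha against Control had 52 with the replicate block and 6 in the 2-group fit. On slide 2 alone, delta and gamma-enriched against Control had 1 and 2.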
